A study of Fukomys damarensis with 47 samples.

Results

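The comparison described here set the 4 solitaires against the 6 helpers among cultures grown from lumbar vertebrae (LV) and kept in vehicle, which are 10 of the 47 RNA-Seq libraries of the series. The members were chosen by their labels alone (bone, treatment and social status), so no expression value entered the choice. All 10 animals were nonbreeding female Damaraland mole-rats (Fukomys damarensis), a cooperatively breeding rodent in which 1 queen reproduces in a colony. Helpers had stayed in the colony they were born in with its queen, and solitaires had been moved out of it and housed alone, without a queen. The vehicle cultures of both groups received the carrier only, while other cultures of the series received 10 nM estradiol. The solitaires were G1F025, G4F020, MAF003 and WEF001, aged 1105 to 1231 days, and the helpers were DVF008, G4F019, LAF008, NOF007, WAF011 and WEF002, aged 1003 to 1232 days. Each library is 1 animal. The comparison asks whether gene expression in vertebral marrow cells differed between nonbreeders housed alone and nonbreeders kept in the colony. Absence of the queen and absence of other colony members come together in solitaires and cannot be told apart.

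In social mole-rats the presence of a queen holds back reproduction in other females, and a female that leaves can breed if she meets a male. A solitaire is therefore the control that separates leaving the colony from becoming a breeder. The cells assayed were marrow cells that adhered to plastic in medium meant to enrich bone marrow-derived mesenchymal stromal cells, the precursors of bone-forming osteoblasts, of fat cells and of cartilage cells. Such early cultures can also carry macrophages and other marrow leukocytes, which adhere to plastic as well. Many canonical markers of these types carried no symbol in the names used here (PTPRC, RUNX2, ACP5, NT5E and THY1 among them), so the cell type check below rests on the markers that did.

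Library size ran from 5672201 to 12114581 counts, and 1 count was worth 0.0825 to 0.176 CPM (a count scaled to the total of its library). The label ages split the helpers: G4F019, NOF007 and WEF002 were 1076 to 1232 days old, overlapping the solitaires, while DVF008, LAF008 and WAF011 were 1003 to 1006 days old, younger than every solitaire, and came from colonies with no solitaire. These 3 are called the younger helpers below. They were also the most deeply sequenced, with a mean of 10284000 counts against 7143370 for the older helpers and 6699960 for the solitaires. Age, colony and depth therefore move with social status in part, and cannot be told apart from one another in those 3 libraries. The labels give no date of sacrifice, cohort or days in culture, so these cannot be told apart from age and colony either. Per the study's methods, its solitaires were all set up in a first wave. Some of its helpers joined in a later wave with a shorter follow-up, and some were not assigned in the experiment. The labels do not say which helpers here these were, so cohort and time in the treatment may also differ with social status. Values against the older helpers alone are given beside the counts, the leading genes and the lists whose median they turn.

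No gene passed the test of solitaires against helpers. Of 11047 genes tested with edgeR's quasi-likelihood test, 0 passed a false discovery rate (FDR) of 10% (0%) and 0 passed 20%, and the smallest adjusted p was 0.536. An unadjusted p under 0.05 was reached by 964 genes (8.73%), 634 with higher values in solitaires (5.74%) and 330 with lower values (2.99%). With animals of 1076 days or more alone the split was even, at 103 higher and 100 lower of 203, and with natal colony as a block it was 66 higher and 80 lower of 146. The median log2 fold change, solitaire minus helper, was -0.0046 over all tested genes, and the median size of a change in either direction was 0.34. At this size of experiment the median gene's 95% interval reached 0.68 log2 units to either side. For 5146 genes (46.6%) the interval lay inside a 2-fold change in either direction (log2 of 1), and for 9810 genes (88.8%) inside a log2 change of 2. The DESeq2 Wald test on the same counts called 41 genes at FDR 10%, 27 with higher values in solitaires. Of these, 40 had no symbol, and the one with a symbol was FOSL1.

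Complete separation of the groups was rare. In 66 genes (0.597%) every solitaire lay above every helper, and in 47 genes (0.425%) every solitaire lay below every helper. With the 3 older helpers alone these became 164 genes (1.48%) above and 143 genes (1.29%) below. Of the 20 genes with a symbol and the smallest p (10 in each direction), 8 had groups that did not overlap. These 20 were picked for their p, so that count describes them and is no test. None of the 20 passed the correction, each having an adjusted p of 0.536, and for each the values by library are given as a description.

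Among genes with lower values in solitaires, FOSL1, which encodes the AP-1 transcription factor subunit FRA-1, a regulator of bone matrix formation, had the smallest p of those with a symbol. TMM-normalised levels in solitaires were 28.9 CPM in G1F025, 26.3 in G4F020, 20.8 in MAF003 and 37.4 in WEF001. In the older helpers they were 57.5 in G4F019, 43.9 in NOF007 and 37.8 in WEF002, and in the younger helpers 81.4 in DVF008, 137 in LAF008 and 132 in WAF011. Every solitaire lay below every helper, but WEF001 and WEF002, from the same natal colony, were nearly level, and the 3 highest values were those of the younger helpers. The mean log2 level was 4.81 ± 0.35 (SD, n = 4) in solitaires and 6.18 ± 0.79 (SD, n = 6) in helpers, a log2 fold change of -1.53 (95% interval -2.39 to -0.66, unadjusted p = 0.00239). With animals of 1076 days or more alone it was -0.70, and with age as a covariate -1.03.

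MYC, the growth-promoting transcription factor, showed the same order at a lower level. Solitaires stood at 2.21, 3.62, 4.79 and 4.11 CPM (G1F025, G4F020, MAF003, WEF001), which rests on 17 to 27 counts a library. Older helpers stood at 6.25, 5.34 and 6.48 CPM (G4F019, NOF007, WEF002) and younger helpers at 8.22, 8.06 and 8.46 CPM (DVF008, LAF008, WAF011). The groups did not overlap, and unlike FOSL1 the difference had a similar size in both colonies that gave a solitaire and a helper, -0.75 for G4F020 minus G4F019 and -0.63 for WEF001 minus WEF002 on the log2 scale. The fitted log2 fold change was -0.96 (95% interval -1.59 to -0.34, unadjusted p = 0.00584), -0.71 among animals of 1076 days or more and -0.85 with age as a covariate.

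The other 8 genes of this direction had overlapping groups. H2AFJ, a histone H2A variant, had a log2 fold change of -1.99 but was read at 1 to 3 counts in each solitaire library. STRIP2, at -1.89, ranged from 0.938 to 5.16 CPM in solitaires and 3.48 to 30.8 in helpers. GRIN3A, an NMDA-type glutamate receptor subunit, was at -1.88, and its 3 highest values, 7.56, 12.8 and 17.1 CPM, were the younger helpers. In both shared colonies the solitaire had the higher GRIN3A level, by 0.34 (G4F020 over G4F019) and 1.15 (WEF001 over WEF002) log2 units, opposite to the fitted sign. NRSN1, a membrane protein of neurons, was at -1.33, ANKRD29 at -1.29, the lipid hydrolase gene ABHD6 at -0.97, the sialyltransferase gene ST3GAL4 at -0.62 and CDH13, which encodes T-cadherin, at -0.51. For ST3GAL4 the low values were those of MAF003 and WEF001 (19.3 and 19.5 CPM), while the other solitaires had 33.8 and 38.9 CPM against 37.2 to 47.7 CPM in helpers.

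**Figure D1:**
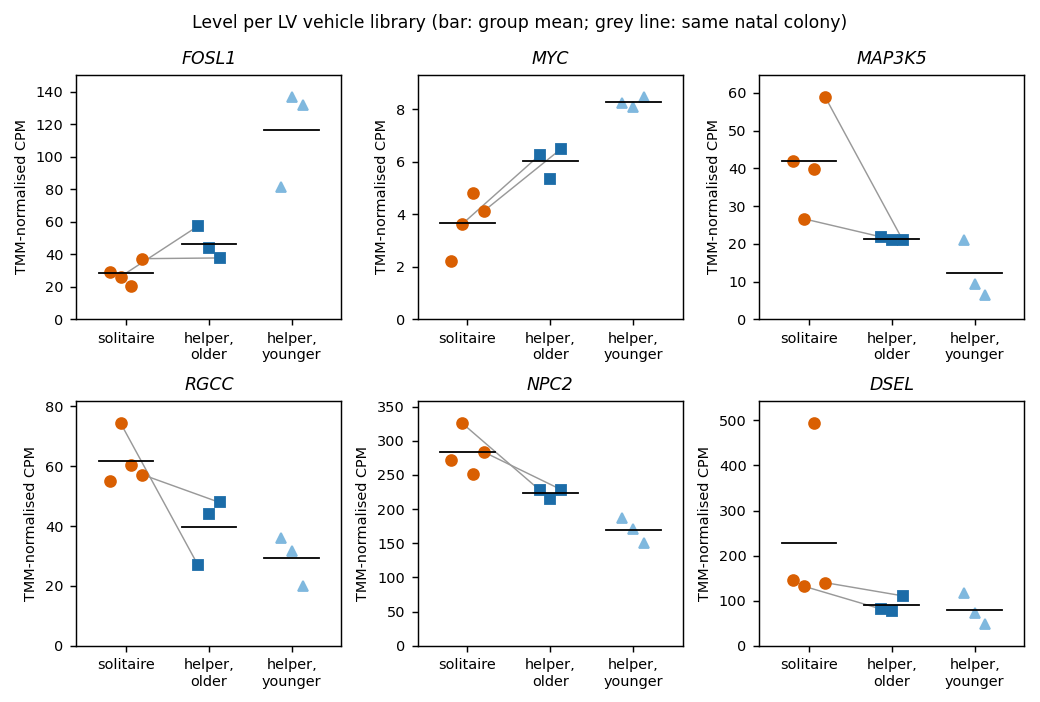
TMM-normalised level (CPM, linear axis from 0) of 6 named genes in each of the 10 LV vehicle libraries, split into solitaires (n = 4), older helpers (1076 days or more, n = 3) and younger helpers (n = 3). Black bars are group means and grey lines join a solitaire and a helper of the same natal colony. FOSL1 and MYC are lowest in solitaires and highest in younger helpers, NPC2 shows the reverse order, and the DSEL mean of solitaires is carried by MAF003 at 494 CPM.

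Among genes with higher values in solitaires, DSEL, an enzyme of dermatan sulfate synthesis, had the smallest p of those with a symbol. Its solitaire levels were 145 CPM in G1F025, 132 in G4F020, 494 in MAF003 and 140 in WEF001. Its helper levels were 47.6, 78.6 and 116 CPM at the lowest, the median and the highest. The groups did not overlap, but the size of the difference came largely from MAF003: the log2 fold change was 1.44 (95% interval 0.59 to 2.29, unadjusted p = 0.00324) in all libraries, 0.73 without MAF003, and 1.36 among animals of 1076 days or more, MAF003 included.

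MAP3K5, which encodes the stress-activated kinase ASK1, stood at 42.0, 26.7, 40.0 and 59.0 CPM in the solitaires (G1F025, G4F020, MAF003, WEF001). The older helpers were tightly placed at 21.9, 21.1 and 21.1 CPM, and the younger helpers had 21.1, 9.35 and 6.35 CPM. Solitaires were thus above all helpers, with a log2 fold change of 1.32 (95% interval 0.53 to 2.11, unadjusted p = 0.00357), which was 0.98 among animals of 1076 days or more.

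RGCC, a regulator of the cell cycle, was level among solitaires, at 55.0 to 74.4 CPM, and spread from 20.1 to 47.9 CPM among helpers. Its log2 fold change was 0.84 (95% interval 0.32 to 1.37), and 0.64 among animals of 1076 days or more. NPC2, a lysosomal cholesterol carrier, had a narrow spread in both groups: 272, 326, 251 and 284 CPM in solitaires, 228, 215 and 228 CPM in older helpers, and 187, 170 and 151 CPM in younger helpers. Its log2 fold change was 0.53 (95% interval 0.17 to 0.88) over all 10 animals and 0.34 among those of 1076 days or more.

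ADSS, an enzyme of AMP synthesis, was also higher in every solitaire (136 to 197 CPM) than in every helper (93.8 to 133 CPM). The same held for FAM172A, at 9.79 to 16.0 CPM in solitaires and 6.61 to 9.21 CPM in helpers. EXTL2, an enzyme of heparan sulfate synthesis, overlapped, at 174 to 268 CPM in solitaires and 137 to 182 CPM in helpers. The small GTPase gene RAP2A had a log2 fold change of 1.07, and only WEF002, the highest helper at 71.6 CPM, reached into the range of the solitaires (65.0 to 131 CPM). The kinase gene STK33 was at 1.07 and the splicing factor gene SRSF12 at 1.88, with SRSF12 values of 9.88, 1.07, 5.53 and 2.86 CPM in solitaires against 0.705 to 2.33 CPM in helpers.

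Of the 8 natal colonies 2 each gave 1 solitaire and 1 helper of nearly the same age (G4F020 and G4F019, WEF001 and WEF002), so their differences are free of the split in helper age. Of the 20 genes, 18 had the fitted direction in the first pair, 17 in the second and 16 in both. The pairs are part of the 10 libraries from which the genes were picked, so these counts describe the genes and test nothing. Among the 10 genes with higher values in solitaires, RGCC had the largest difference in the first pair (1.46) and MAP3K5 in the second (1.47). A fit with natal colony as a block uses little else than these pairs. It called 4 genes at FDR 10%, all without a symbol, with 1 residual degree of freedom left to estimate the spread.

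**Figure D2:**
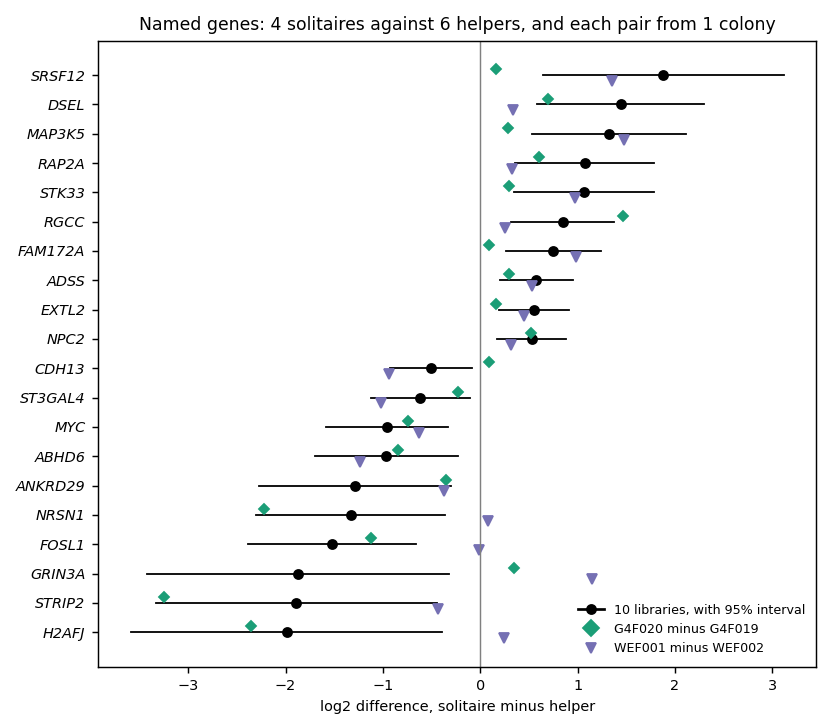
Log2 difference, solitaire minus helper, for the 20 named genes. Black points and bars are the fitted value over 10 libraries with its 95% interval, diamonds the pair G4F020 minus G4F019 and triangles the pair WEF001 minus WEF002, each from 1 natal colony. GRIN3A lies below 0 in the fit and above 0 in both pairs.

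Among genes without a symbol, ENSFDAG00000007897 had the smallest p of all genes (0.000284), with 749, 426, 621 and 396 CPM in the solitaires (G1F025, G4F020, MAF003, WEF001) and 222 to 345 CPM in helpers. Its groups did not overlap and its log2 fold change was 1.06 (SE 0.21). In the opposite direction ENSFDAG00000016528 had 0.368 to 1.34 CPM in solitaires, from 2 to 10 counts a library, against 1.67 to 5.09 CPM in helpers (log2 fold change -2.11, SE 0.46). ENSFDAG00000021555, named after its values were seen, was read at 11.4 CPM in G1F025, 46.4 in MAF003 and 15.7 in WEF001 but at 0 in G4F020. It had 11 counts in all over the 6 helper LV vehicle libraries, but other cultures of helpers did express it. In long bone vehicle cultures of the same animals it ran from 0 to 89.3 CPM in solitaires and 0 to 15.9 CPM in helpers. In LV estradiol cultures it was at 9.51 CPM in WEF001 and 0 to 24.5 CPM in 4 helpers. G4F020 is the solitaire whose removal let 5 genes pass FDR 10%, all higher in solitaires and without a symbol. ENSFDAG00000021555 is one of them.

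The libraries did not separate by social status on the main axes of variation. The first principal component of log2 CPM held 46.4% of the variance and was set by 2 solitaires, WEF001 at 98.7 and MAF003 at 77.7, while the other 2 solitaires, at -11.6 and -36.8, fell within the helper range of -64.5 to 14.9. The group means were 32.0 ± 66.3 (SD, n = 4) in solitaires and -21.3 ± 27.1 (SD, n = 6) in helpers, with an exact two-sided permutation p of 0.124 and an adjusted p of 0.236 over 6 library measures. The second component (19.6%) put the 3 younger helpers at -50.6, -47.9 and -28.2 and the other 7 libraries between -3.11 and 41.8. The third component held 8.91% and had solitaires and helpers intermixed. Total count (exact permutation p = 0.105), genes with at least 1 count (exact p = 0.157) and the share of counts in the 50 most abundant genes (exact p = 0.119) also gave no difference that passed, with the smallest p the 210 possible splits allow being 0.00476. WEF001 and MAF003 were the lowest 2 libraries in each of these measures, with 6082900 and 5672200 counts, 14613 and 14846 genes and shares of 21.4% and 21.7%. Whether this bears on their place on the first component was not tested.

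**Figure D3:**
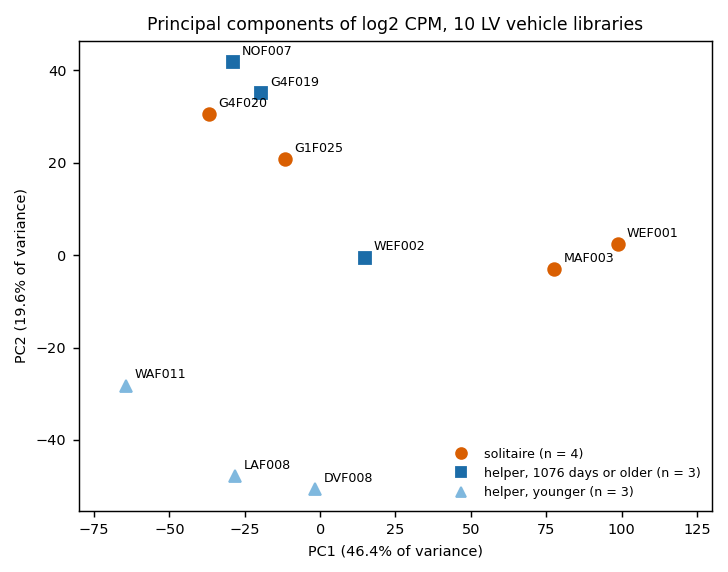
First and second principal components of log2 CPM over 11047 genes for the 10 LV vehicle libraries, each point 1 animal, with the share of variance on each axis. WEF001 and MAF003 lie far to the right of the other solitaires, and the 3 younger helpers lie lowest on the second component.

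Lists of genes for cell types and pathways were read in the same fit. In all 20 lists no member passed FDR 10%. The leukocyte list had 29 genes, 25 with an identifier and 23 tested. Of these, 11 were above 0 and 12 below, the median log2 fold change was -0.16 beside -0.0046 over all tested genes, and GRAP2, an adaptor of T cell receptor signalling, was the only member with an unadjusted p under 0.05 (1 of 23, beside 8.73% of all genes). The summed level of the list ran from 219 to 479 CPM in solitaires and from 115 to 1291 CPM in helpers. LAPTM5, a lysosomal membrane protein of blood cells, had 50.1 to 125 CPM in solitaires and 16.1 to 421 CPM in helpers, IL7R, the interleukin 7 receptor, 35.4 to 104 and 20.1 to 115 CPM, and CTSS, the protease cathepsin S of antigen-presenting cells, 19.7 to 116 and 6.11 to 162 CPM.

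Within helpers the summed leukocyte list and part of its members were lower in the younger animals. The summed list was 484, 1291 and 183 CPM in the older helpers (G4F019, NOF007, WEF002) and 153, 115 and 157 CPM in the younger helpers (DVF008, LAF008, WAF011), and all 4 solitaires lay above the younger helpers. In 11 of the 23 genes all 3 younger helpers lay below the other 7 libraries, beside 3.17% of all tested genes, and in 0 of the 23 above them, beside 2.3% of all tested genes. C3AR1, a complement receptor of myeloid cells, stood at 1.89, 2.29 and 3.84 CPM in the younger helpers against 8.47 to 80.6 CPM in the other 7. CLEC4E, a pattern receptor of macrophages, stood at 1.11, 1.69 and 1.80 CPM against 8.69 to 68.1 CPM. CX3CR1, CD180 and TLR8, also of myeloid cells, were under 1 CPM in all 3. Other members did not follow. GRAP2 had 9.22, 3.08 and 6.90 CPM in the younger helpers (DVF008, LAF008, WAF011). In the older helpers (G4F019, NOF007, WEF002) it had 2.19, 9.15 and 0.552 CPM. LAPTM5 was at 31.6 CPM in WEF002, below DVF008 and WAF011 (33.7 and 32.7 CPM). The members were read in the same 3 animals and can vary together, so the 11 genes are not separate observations. With animals of 1076 days or more alone the list's median log2 fold change was -0.77, and in the fit over all helpers but NOF007 it was 0.73. Whether fewer leukocytes or less RNA per leukocyte lay behind the low levels in younger helpers cannot be told apart in bulk cultures. The part of these levels in the gene results above was not tested.

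**Figure D4:**
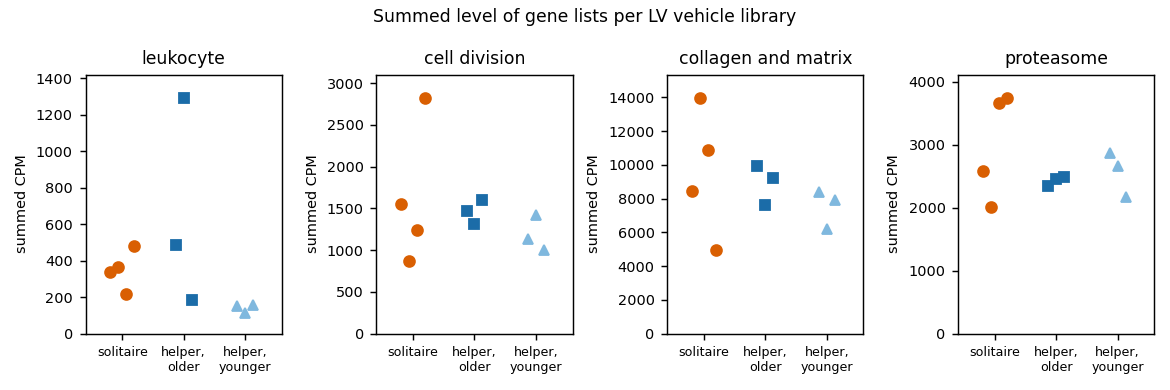
Summed CPM (linear axis from 0) of 4 gene lists in each LV vehicle library, by solitaires (n = 4), older helpers (n = 3) and younger helpers (n = 3). The leukocyte list is lowest in the 3 younger helpers and highest in the older helper NOF007, and the cell division list is highest in the solitaire WEF001 and lowest in the solitaire G4F020.

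The bone-related lists did not move one way. Of the osteoblast and mineral list (12 genes, 5 tested) 2 were above 0 and 3 below, with a median of -0.43 (0.03 among animals of 1076 days or more). SERPINF1, the secreted factor PEDF, which acts in bone mineralisation, had 546, 1320, 2572 and 877 CPM in the solitaires (G1F025, G4F020, MAF003, WEF001) and 346 to 922 CPM in helpers (log2 fold change 1.18, unadjusted p = 0.0158, adjusted p = 0.536). ANKH, a transporter that limits mineral deposition, had 41.8 to 70.3 CPM in solitaires and 40.4 to 230 CPM in helpers (-1.20, unadjusted p = 0.0304), with G4F019 and WEF002 at the solitaire level. COL1A1, the main collagen of bone, had 84.9 to 493 CPM in solitaires and 289 to 609 CPM in helpers, an interval of -1.42 to 0.34 for its log2 fold change. IGFBP5, a binding protein of insulin-like growth factors, was at 0.10.

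In the osteoclast and acid lysosome list (12 genes, 8 tested), 5 were above 0 and 3 below, with a median of 0.05 (-0.29 among animals of 1076 days or more). NPC2 was its only member under p of 0.05. CTSK, cathepsin K, the collagen-degrading protease of osteoclasts, had 62.4 to 354 CPM in solitaires and 250 to 640 CPM in helpers (log2 fold change -0.92, unadjusted p = 0.0547), and CTSZ, a lysosomal peptidase, was at 0.06. A list the study itself had drawn for bone resorption from genes higher in queens, partly on these libraries, had 5 members, each above 0, with a median of 0.46 in all 10 animals and -0.48 among those of 1076 days or more. The study's leukocyte chemotaxis list (8 genes) had a median of 0.02 with 4 above and 4 below 0, and -0.39 among animals of 1076 days or more. Its superoxide anion generation list (4 genes) had a median of 0.21 with 4 above 0, and -0.63 among animals of 1076 days or more. The summed superoxide list was 44.7 to 49.2 CPM in the younger helpers, who were also low in the leukocyte list, and 67.6 to 468 CPM in the other 7 libraries, and the part of leukocyte content in these medians was not tested. No member of the 3 lists had a p under 0.05.

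The collagen and matrix list (21 genes, all tested) had 13 above and 8 below 0 and a median of 0.21. THBS1, the matrix glycoprotein thrombospondin 1, was the most abundant, with 3155 to 8253 CPM in solitaires and 3510 to 6198 CPM in helpers (log2 fold change 0.22, interval -0.37 to 0.82). COL5A2 was at 0.34 (interval -0.12 to 0.80). The list's sum was 13952 CPM in G4F020 and 4928 CPM in WEF001, so that the highest and the lowest of the 10 libraries were both solitaires. The contractile list (12 tested) had 4 above and 8 below, a median of -0.28, and its lowest sum in WEF001 too, at 1279 CPM. Its 3 most abundant members were FHL1 (0.27), TPM3, a tropomyosin (-0.40), and CSRP1 (-0.53). ENG, or endoglin, the only stromal surface marker with a symbol, ranged from 0.536 CPM in WEF001 to 30.7 CPM in G4F020, and 5.80 to 24.6 CPM in helpers.

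Of the endothelial list (10 genes, 6 tested) 1 was above 0 and 5 below, with a median of -0.61 (0.07 among animals of 1076 days or more) and no p under 0.05. RHOJ was at 0.53, FLI1 at -0.66 and PTPRB at -0.07. Of the fat cell list (9 genes, 6 tested) 1 was above and 5 below, with a median of -0.01. PPARG, the master regulator of fat cell formation, had 9.88 to 12.6 CPM in solitaires and 9.25 to 15.1 CPM in helpers. CPT1A, the entry enzyme of mitochondrial fatty acid oxidation, was at -0.01 with an interval of -0.39 to 0.36, PLIN2, a lipid droplet coat protein, at 0.40 and PNPLA2, the triglyceride lipase, at -0.81.

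No signalling gene passed the correction. In the TGF-beta and BMP list (13 genes, 12 tested) 6 were above and 6 below 0, with a median of -0.02 (0.02 among animals of 1076 days or more), and none had p under 0.05. LTBP1, which holds latent TGF-beta in the matrix, was at 0.12, TGFB3 at -0.35 and the signal transducer SMAD2 at 0.04 (interval -0.41 to 0.48). The Wnt list (7 tested) had a median of -0.11 and no p under 0.05. Its most abundant members were TCF4 (-0.11), the receptor FZD4 (0.27) and TCF7L1 (0.42). In the list of IGF, FGF, PTH and gp130 signalling (12 genes, 11 tested) 9 were above 0 and 2 below, with a median of 0.24. FGFR1, a fibroblast growth factor receptor, had 3.93 to 16.0 CPM in solitaires and 7.31 to 31.6 CPM in helpers (-1.10, unadjusted p = 0.0492), and PIK3CA, a catalytic subunit of PI3 kinase, was at 0.56 (unadjusted p = 0.0466). IL6ST, the gp130 receptor subunit, had 119, 58.7, 44.2 and 27.9 CPM in the solitaires (G1F025, G4F020, MAF003, WEF001) against 30.8 to 45.1 CPM in helpers, so that only G1F025 and G4F020 lay above the helpers. IGF2R was at 0.17.

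In the list of steroid coregulators and response (9 tested) the median was 0.26, with 5 above and 4 below. NRIP1, a corepressor of the estrogen receptor, had 45.6 to 169 CPM in solitaires and 57.3 to 81.4 CPM in helpers, SRA1 was at 0.27 and HSD17B11, a steroid dehydrogenase, at 0.46. DIO2, which activates thyroid hormone, had a log2 fold change of -0.85 (unadjusted p = 0.0424) and its highest levels in DVF008 and LAF008 (29.4 and 32.2 CPM), against 7.15 to 19.7 CPM in solitaires. The interferon, cytokine and chemokine list (13 tested) had a median of 0.26 and no p under 0.05, with IL1R1 at 0.26, SAMD9L at -0.02 and the proteasome activator PSME1 at -0.07.

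The cell division list (23 genes, all tested) had 19 above 0 and 4 below, with a median of 0.38 beside -0.0046 over all genes, but 1 library carried it. The list's sum was 2822 CPM in WEF001 and 873 CPM in G4F020, again the extremes of the 10 libraries, and 1004 to 1603 CPM in helpers. Without WEF001 the median was -0.06. CKAP2, a spindle protein, was its only member with p under 0.05 (log2 fold change 0.83), and MCM6 and RRM1, both of DNA replication, stood at 0.31 and 0.28, while PRC1, of cytokinesis, stood at -0.15. CDK1, the mitotic kinase, had 259 CPM in WEF001, 92.4 in G1F025, 92.1 in MAF003 and 43.2 in G4F020, against 62.1 to 124 CPM in helpers.

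Ribosome, mitochondrial and proteasome genes serve every cell type. The cytosolic ribosome list (9 tested) had a median of 0.07, with RPL6 at 0.35, RPS18 at -0.01 (interval -0.40 to 0.38) and RPL8 at 0.13. The mitochondrial list (31 genes, 30 tested) had a median of 0.11, with ATP5F1B, a subunit of ATP synthase, at 0.06 (interval -0.25 to 0.36), MDH2 at 0.22 and COX6A1 at 0.20. The proteasome list (9 tested) had 7 above and 2 below and a median of 0.27, with PSMD14 at 0.53, PSMB1 at 0.27 and PSMD5 at 0.13, and PSMA6 was its only member with p under 0.05 (0.49). Its sum was 3662 and 3742 CPM in MAF003 and WEF001, 2577 and 2016 CPM in the other solitaires, and 2165 to 2865 CPM in helpers, and without MAF003 and WEF001 its median was -0.10.

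The same 10 animals also gave long bone cultures in vehicle, in which the difference could be compared. The change in the solitaire minus helper difference between LV and long bones passed FDR 10% in 0 of 11047 genes (0%), with a smallest adjusted p of 1.00 and 206 genes (1.86%) under an unadjusted p of 0.05. Among genes with a symbol TNFAIP8L3 had the smallest p: its log2 difference of differences was -2.62 (SE 0.69, unadjusted p = 0.00195). TNFAIP8L3 was read at 0.536 to 1.43 CPM in solitaire LV libraries, from only 3 to 11 counts a library, and 1.11 to 6.27 CPM in helper LV libraries. In long bone libraries it was at 1.18 to 3.48 CPM in solitaires and 0.611 to 1.44 CPM in helpers.

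MYC was lower in every solitaire than in every helper in long bones too, at 3.04 to 4.62 CPM against 6.68 to 13.7 CPM. FOSL1 ran from 23.0 to 48.6 CPM in solitaires and 47.5 to 123 CPM in helpers, which overlapped by 1 library. Their differences between bones were 0.30 (SE 0.38) and -0.13 (SE 0.43). MAP3K5 had 21.9 to 56.8 CPM in solitaire and 12.7 to 24.3 CPM in helper long bones, and ENSFDAG00000007897 had 315 to 680 against 184 to 320 CPM. Of the 20 named genes 19 had the LV direction in long bones, FAM172A being the exception. The share of all tested genes with the same sign in both bones is not given here, so the count only describes these 20. Some of the 19 were near 0 in long bones: the difference in mean log2 level was -0.10 for H2AFJ and -0.12 for GRIN3A. The bones share their animals, including the younger helpers, so the long bones are not a separate set of animals.

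**Figure D5:**
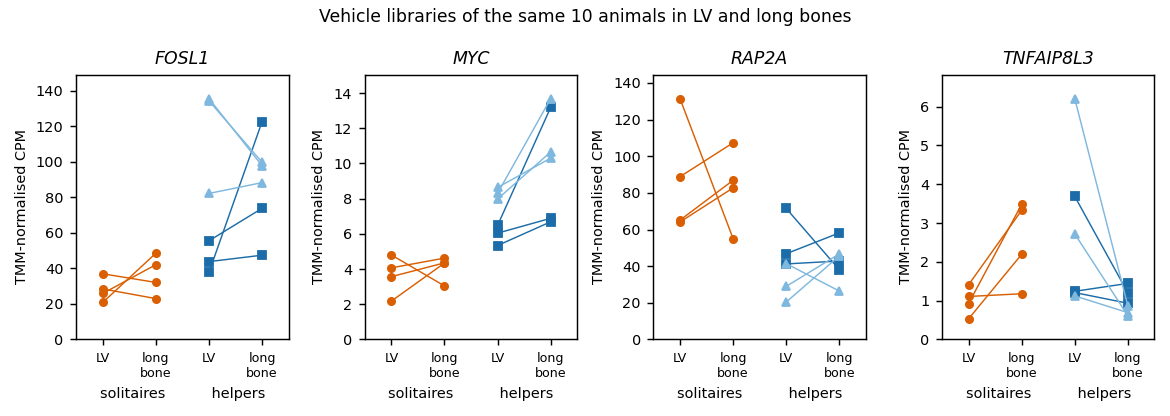
TMM-normalised level (CPM, linear axis from 0, scaled over the 20 vehicle libraries) of 4 genes in LV and in long bone cultures, a line for each animal, circles for solitaires, squares for older helpers and triangles for younger helpers. MYC lies lower in solitaires than in helpers in both bones, and TNFAIP8L3 changes order between them.

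Estradiol cultures of LV exist for 1 solitaire, WEF001, and 4 helpers, so no test was made. In them FOSL1 was at 71.7 CPM in WEF001 and 51.2 to 145 CPM in helpers, and MYC at 4.56 CPM against 3.01 to 12.0 CPM, so for both genes the solitaire fell within the helper range. Of the 20 named genes, 14 had WEF001 inside the helper range, and 6 (MAP3K5, RAP2A, NRSN1, STRIP2, H2AFJ and GRIN3A) had it outside in the direction of the vehicle fit. The share over all tested genes is not given here. The genes were picked on vehicle libraries of these same animals, so the counts describe them and test nothing. RAP2A, at 64.4 CPM in WEF001 against 22.8 to 51.1 CPM in helpers, and MAP3K5, at 32.8 CPM against 12.9 to 29.8 CPM, were the 2 above the helpers.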

How the data were processed

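The study dissociated LV and long bone marrow, cultured adherent cells until clusters formed, and treated them with vehicle or estradiol for a day before RNA-Seq with single-end reads. Per the labels and the study's methods, the authors trimmed reads (cutadapt 2.3), mapped them in 2 passes with STAR, kept unique alignments and tallied reads per gene with HTSeq. They deposited whole-number counts for 33562 genes. No strand setting was named, so overlapping and antisense genes are uncertain. Here, genes at 2 CPM or more in 25% of the 47 libraries were tested (11047), with edgeR 4.0.16 in R 4.3.3 (TMM, quasi-likelihood, two-sided, Benjamini-Hochberg adjustment, 10% FDR). The study filtered at the same value of TPM instead, so its tested genes differ. Levels are TMM-normalised CPM, and log2 levels use a prior count of 2. Summed list levels are CPM without TMM factors. Single library measures were compared by exact permutation. The difference between bones was fitted over 20 vehicle libraries with animal as a block. Alternatives used DESeq2 1.42.0, limma 3.58.1 voom, other filters, age, natal colony and samples left out. Natal colony, which the study regressed out, was kept out of the fit because only 2 of the 8 colonies held both groups. Deviations from the group means correlated at 0.16 between G4F020 and G4F019 and 0.41 between WEF001 and WEF002, each pair from 1 colony, within the range of -0.53 to 0.52 (median -0.02) over 22 other solitaire and helper pairs. Both values lie above that median, and 2 pairs are too few to tell whether colony mates are more alike. The study found that G4F020 and G4F019 had different fathers. No pair of libraries agreed within sampling noise. The scripts were tested on simulated data.

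The symbol of a gene was known for 1117 of the tested genes, from the identifier and symbol columns of a table of the study, which favours genes the study singled out. The RefSeq table matched 0 identifiers, and no coordinates or sequences are given. Genes were named by smallest p (10 with a symbol in each direction, 1 without) and lists by their 3 most abundant members; members of the study's lists without symbols are given as counts. Members and lists were chosen with earlier results of these data known.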

Additional observations from a re-analysis of the deposited data

Results flagged for a closer look

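In 60 groups of values (24 genes and 6 library measures in each group) a single library far from the others was looked for with Dixon's gap ratio, which chance passes in about 1 of 20 groups. Of these, 2 passed. For DSEL, MAF003 stood far above the other solitaires, with a gap of 0.929 of the group's range on the log2 scale. For ENSFDAG00000016528, DVF008 stood below the other helpers, with a gap of 0.67 of the range.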

How the results depend on the processing

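The count of genes at FDR 10% was 0 in the reported fit. It was 41 with the DESeq2 Wald test, 4 with natal colony as a replicate block and 0 to 5 when 1 animal was left out, the 5 arising without G4F020. It was 0 with DESeq2 size factors, either other filter, limma voom, age as a covariate, only animals of 1076 days or more, and the 2 larger fits with queens and the colony block. It was also 0 without MAF003 and WEF001, an alternative chosen after seeing the data. The count at an unadjusted p under 0.05 moved from 964 to 412 with age as a covariate, 203 with animals of 1076 days or more and 146 with the colony block, and ranged from 408 (without MAF003) to 2527 (without G4F020) when 1 animal was left out. For the bone difference the count of 0 became 25 with no filter on low counts.

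GRIN3A turned to 0.78, 0.77 and 1.02 in the 3 fits with natal colony as a block (10 libraries, 13 with queens, 14 animals with treatments summed). CDH13 and TNFAIP8L3 turned to 0.44 and 0.64 in the last of these, in which FOSL1 was at -0.05. The second component's difference of 21.1 became -12.8 with animals of 1076 days or more. The first component's difference ranged from 31.1 to 76.3 and the third's from 6.57 to 27.9 when 1 animal was left out, passing an exact permutation p of 0.05 without G4F020 (p = 0.0357) and without WEF001 (p = 0.0476), respectively, before adjustment. The causes were not tested. Each of the 20 list medians changed sign in at least 1 of 21 alternatives, the leukocyte list in 11, so no list has a stable direction here. Short lists, lower depth in solitaires and 4 against 6 animals limit what can be detected.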
